A study of Mus musculus with 8 samples.

Results

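The 10 genes described here mark and steer T cells, and they were followed through ischemic kidney injury: the coreceptors *Cd4* and *Cd8a*, the regulatory T cell genes *Foxp3*, *Ikzf2* and *Il2ra*, the costimulatory receptor *Icos*, and the inhibitory receptors *Ctla4*, *Pdcd1*, *Lag3* and *Tigit*. They were taken by symbol from the gene table, where all 10 of 57010 genes matched 1 row each. Transcripts had been counted in single cells of mouse kidneys injured by clamping the vessels of the left kidney and then releasing them (ischemia-reperfusion injury, IRI), to learn how the kinase inhibitor entospletinib alters the leukocytes of the injured kidney. All mice were male C57BL/6 animals, whose ages were not given in the sources used here. The control was 1 pool of untouched kidneys from 3 mice without injury. Vehicle pools came from mice given DMSO before IRI and examined 1, 7 or 14 days later. Entospletinib pools came from mice given the SYK inhibitor before IRI and examined at the same days. Per the study, treatment went on with repeat injections from day 1 in the later groups. Kidneys of 3 mice were combined in each of these 7 pools, and live cells were sorted by dye exclusion and scatter to enrich leukocytes, so shares of cells describe the sorted suspension.

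T cells read antigen through a receptor that works with the coreceptor CD4 on helper and regulatory cells or CD8 on cytotoxic cells. Costimulatory receptors such as ICOS add to that signal, while CTLA-4, PD-1 (*Pdcd1*), LAG-3 and TIGIT restrain it and are themselves induced when T cells are activated. Regulatory T cells are defined by the transcription factor FOXP3, usually carry Helios (*Ikzf2*), the interleukin 2 receptor alpha chain (*Il2ra*) and CTLA-4, and limit inflammation in injured tissue, the kidney included.

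The genes lie on 4 autosomes and the X chromosome of mm10. *Ctla4* (chr1:60887000-60915832) and *Icos* (chr1:60977927-61000320) are neighbours on the plus strand of chromosome 1 with 62094 bp between them. *Cd4* (chr6:124864692-124888221) and *Lag3* (chr6:124904361-124911705) are neighbours on the minus strand of chromosome 6, 16139 bp apart. Chromosome 1 also holds *Ikzf2* (chr1:69531214-69687245) and *Pdcd1* (chr1:94038305-94052553), and *Cd8a* lies at chr6:71373427-71379173. The remaining members are *Il2ra* (chr2:11642807-11693193), *Tigit* (chr16:43648867-43664146) and *Foxp3* (chrX:7573644-7595245). *Foxp3* overlaps *Ppp1r3f*, *Gm36995*, *Flicr* and *Ccdc22* in the annotation, *Ctla4* overlaps the pseudogene *Rpl18-ps1*, and *Ikzf2* overlaps the antisense gene *Gm29114* and the sense intronic genes *Gm29112* and *Gm28112*. *Il2ra* and *Icos* overlap the same-strand entries *Gm37881* and *Gm37039*. Whether the counting used strand is not given in the sources used here, so reads of these overlaps cannot be assigned with certainty.

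Promoter sequence is shown for the 3 members with an entry among those that passed the 2-fold rule described further on. RefSeq (GRCm38.p6, the build of the counts) gave 7 entries for 6 of the 10 members, each from 250 bases before to 50 bases from a start site on. They were searched on both strands for TGANTCA (AP-1), TGGAAA (the core that NFAT binds) and AAAGGTCA (the monomer site of the NR4A receptors), motifs of factors that act downstream of the T cell receptor. Capitals mark the only matches found in the 7 entries, 2 copies of TTTCCA, the reverse complement of the NFAT core.
Foxp3, first start, plus strand, chrX:7579426-7579725: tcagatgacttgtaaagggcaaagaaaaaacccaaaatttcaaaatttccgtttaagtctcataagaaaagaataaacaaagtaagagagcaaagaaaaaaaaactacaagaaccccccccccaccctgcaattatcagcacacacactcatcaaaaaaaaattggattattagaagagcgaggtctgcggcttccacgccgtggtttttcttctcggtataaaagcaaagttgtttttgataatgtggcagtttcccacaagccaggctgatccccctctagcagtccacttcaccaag
Foxp3, second start, plus strand, chrX:7580233-7580532: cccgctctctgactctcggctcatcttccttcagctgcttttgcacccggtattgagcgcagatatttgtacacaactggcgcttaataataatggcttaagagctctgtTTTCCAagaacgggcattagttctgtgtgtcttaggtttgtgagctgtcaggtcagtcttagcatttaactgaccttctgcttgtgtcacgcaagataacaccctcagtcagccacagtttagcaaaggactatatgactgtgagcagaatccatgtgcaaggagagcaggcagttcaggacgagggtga
Ctla4, plus strand, chr1:60908775-60909074: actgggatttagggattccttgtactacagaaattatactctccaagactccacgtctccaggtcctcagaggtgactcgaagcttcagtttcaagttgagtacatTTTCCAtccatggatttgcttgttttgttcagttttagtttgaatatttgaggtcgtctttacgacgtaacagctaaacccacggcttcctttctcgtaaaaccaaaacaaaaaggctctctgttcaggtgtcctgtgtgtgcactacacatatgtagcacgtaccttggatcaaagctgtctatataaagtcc
Pdcd1, minus strand, chr1:94052504-94052803: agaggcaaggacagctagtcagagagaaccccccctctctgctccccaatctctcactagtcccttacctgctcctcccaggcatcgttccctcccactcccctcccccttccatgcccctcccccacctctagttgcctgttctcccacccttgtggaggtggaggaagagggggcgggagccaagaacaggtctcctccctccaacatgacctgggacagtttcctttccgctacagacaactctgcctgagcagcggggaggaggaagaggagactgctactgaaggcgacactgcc
The match began at base -140 from the second *Foxp3* start and at base -144 from the *Ctla4* start. Of all 32851 promoter entries of that length, 21.4% held the NFAT core, 7.81% the AP-1 motif and 1.51% the NR4A motif, so a match to the first is frequent. These letters are a description of the windows and not binding sites.

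Of 120281 barcodes with 388617036 counts, 79389 passed the limits on genes, counts, mitochondrial and ribosomal protein counts. Their clusters included 3248 T-cell-like cells with 6523100 counts and a median of 1725 counts per cell. Most T cell receptor and CD3 genes were highest in them: *Cd3e* had 206 CPM (a gene's counts scaled to a common total of the same cells' counts) in T-cell-like cells against at most 76.2 in any other class, *Trbc2* 150 against 46.7 and *Trac* 166 against 36.9. The other class was each time the basophil-or-mast-cell-like one, where 49.7% of 145 cells were called doublets. *Trbc1* went the other way, with 139 CPM against 169 in NK-cell-like cells. The control gave 547 T-cell-like cells, the vehicle pools 161, 154 and 1366 at days 1, 7 and 14, and the entospletinib pools 90, 160 and 770. Depth was lower in the entospletinib pool of day 14, with a median of 847 counts per T-cell-like cell against 1848.5 with vehicle. The limit on ribosomal protein counts, taken from the study, removed 53.9% of T-cell-like cells from that pool and 67.2% from the entospletinib pool of day 1, but 10.5% and 46.0% from their vehicle partners. Markers of other cells were low in T-cell-like cells: 8 macrophage markers summed to 63.7 to 203 CPM over the 7 pools against 6177 in macrophage-like cells, and 7 neutrophil markers to 82.8 to 363 CPM against 20128 in neutrophil-like cells, highest in both day 1 pools. NK cell markers summed to 128 to 288 CPM against 4029 in their own class, B cell markers to 16.5 to 89.3 against 11284 and proximal tubule markers to 26.1 to 110 against 8102. Of the barcode combinations, 13712 of 105340 (13%) occurred in more than 1 of the 8 sublibraries, and each was kept as a cell of its own sublibrary.

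Levels below are CPM of counts summed over cells, with the SD over the 8 sublibraries. Every sublibrary holds cells of all pools, so this SD is technical error, and counting intervals (95%, exact Poisson for CPM and exact binomial for shares) cover counting error only. Differences between genes are not read from CPM, which depends on transcript length.

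With counts summed over all 7 pools, 7 of the 10 genes were at their highest in T-cell-like cells among the 17 named classes. The exceptions were *Il2ra* and *Icos*, highest in cells with the genes of type 2 innate lymphoid cells (ILC2), and *Lag3*, highest in cells with the genes of plasmacytoid dendritic cells (pDC). A caveat concerns the 145 basophil-or-mast-cell-like cells, 49.7% of which were called doublets: their *Foxp3* and *Pdcd1* counts were 0 without the called doublets, so that class is left out of the orders given here.

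*Cd4* had 142 CPM ± 19 (SD, n = 8 sublibraries) in T-cell-like cells and 120 ± 26.2 in pDC-like cells, a gap smaller than the larger SD. The pDC-like level was the higher of the pair in 4 of the 7 pools, the control and the 3 entospletinib pools. Macrophage-like cells followed with 22.7 CPM ± 0.99 and, being numerous, held 44.9% of all *Cd4* counts against 27.9% in T-cell-like cells. In NK-cell-like cells no *Cd4* count was seen among 813 cells, which allows up to 2.39 CPM. *Cd8a* had 105 CPM ± 16.5 in T-cell-like and 46.6 ± 26.5 in pDC-like cells, and at most 7.41 in the other classes compared. *Cd4* counts thus lay mostly outside the T-cell-like class, whereas 59.5% of *Cd8a* counts lay within it.

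*Foxp3* was nearly confined to the T-cell-like class, with 42.3 CPM ± 13.3 against 2.00 (1 count) in ILC2-like cells and under 1 in the others compared. At least 1 *Foxp3* count was seen in 4.50% of T-cell-like cells, against 0.0365% of 13706 neutrophil-like cells (median 1338 counts) and 0.180% of 2220 proximal-tubule-like cells (median 2406 counts), which should lack it. *Ikzf2* was broader, at 755 CPM ± 88.9 in T-cell-like, 483 ± 117 in ILC2-like and 214 ± 89.5 in NK-cell-like cells. It was also found in kidney epithelium, with 96.9 CPM in distal-tubule-or-collecting-duct-like cells and a count in 8.02% of proximal-tubule-like cells. *Il2ra* had 1056 CPM ± 356 in ILC2-like, 432 ± 121 in migratory-dendritic-cell-like and 124 ± 25.6 in T-cell-like cells, each step larger than the larger of its SDs. In the entospletinib pool of day 14 the first step was turned, with 382 CPM in ILC2-like and 450 in migratory-dendritic-cell-like cells.

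*Icos* had 685 CPM ± 272 in ILC2-like and 268 ± 31.1 in T-cell-like cells, and 61.1% of its counts were in the latter. Only with vehicle at day 14 was the T-cell-like level above the ILC2-like one, 269 against 239 CPM. *Ctla4* had 196 CPM ± 27.8 in T-cell-like cells and 27.2 ± 8.57 in B-cell-like cells, the next class. *Pdcd1* had 59.2 CPM ± 10.7 in T-cell-like and 24 ± 22.8 (12 counts) in ILC2-like cells, and T-cell-like cells held 67.4% of its counts. *Tigit* did not differ beyond its spread between T-cell-like cells, 51.0 CPM ± 11, and NK-cell-like cells, 40.2 ± 19.3, and was at most 2.07 elsewhere. By pool the NK-cell-like level was the higher in 4 of 7. *Lag3* stood apart from the other inhibitory receptors: pDC-like cells had 64.8 CPM ± 15.1, while T-cell-like cells had 4.29 (28 counts) and held 3.03% of its counts.

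**Figure D1:**
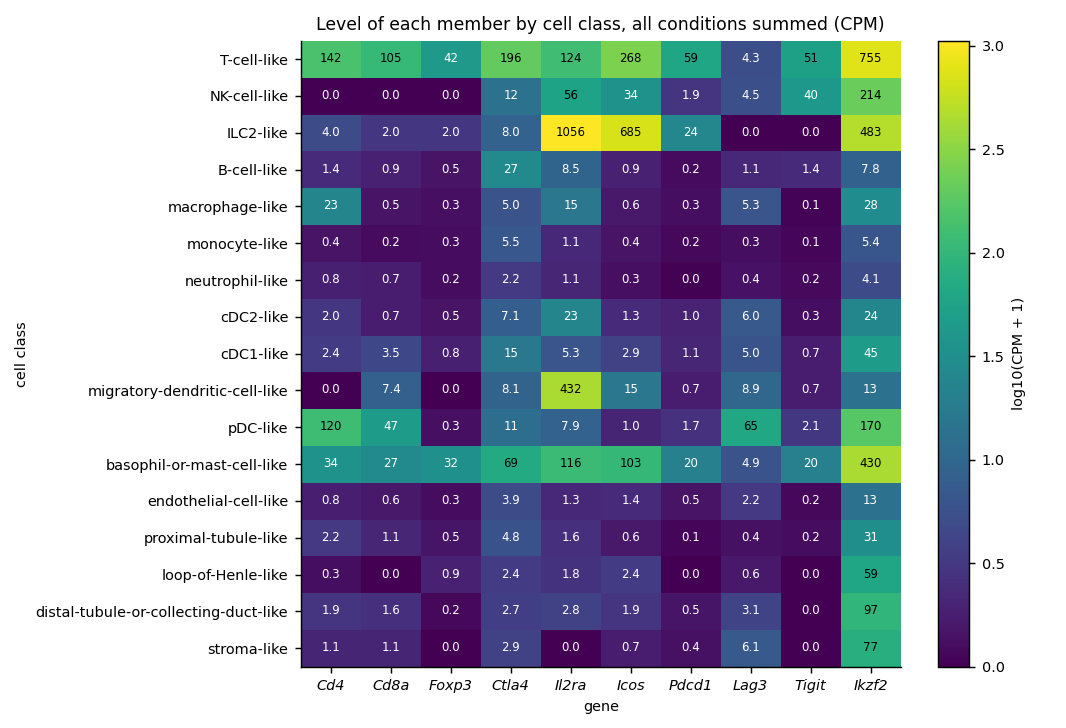
Levels of the 10 genes (columns) in 17 cell classes (rows), in CPM of counts summed over all 7 pools. In these sums the T-cell-like row is the highest for 7 genes, narrowly so for *Cd4* and *Tigit*, and *Il2ra* (1056 CPM) and *Icos* (685 CPM) peak in ILC2-like cells and *Lag3* (64.8 CPM) in pDC-like cells.

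Within the T-cell-like class the genes split by cell group. The class was clustered again without the 10 members, so their levels had no part in forming the groups, although genes linked to them did. A group of 306 cells was named regulatory-T-cell-like from *Ikzf4*, *Tnfrsf18*, *Tnfrsf4* and *Itgae*. It was 9.42% of T-cell-like cells and held 80.1% of their *Foxp3* counts, 49.5% of *Ikzf2*, 49.0% of *Il2ra* and 41.8% of *Ctla4*. Its levels were 319 CPM for *Foxp3*, 3522 for *Ikzf2*, 570 for *Il2ra* and 774 for *Ctla4*, against 9.43, 427, 70.7 and 128 in all other T-cell-like cells. *Cd4* stood at 247 CPM in this group and *Cd8a* at 7.22, that is, 5 *Cd8a* counts in 306 cells.

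A second group of 426 cells led by *Cd8b1*, the partner chain of CD8 alpha, held 59.5% of T-cell-like *Cd8a* counts at 441 CPM and had 16.3 CPM of *Cd4*. It also had the highest *Pdcd1* level, 142 CPM (SD 29.9) against 131 (SD 45.6) in regulatory-T-cell-like cells, a gap smaller than either SD. Its *Tigit* level was 114 CPM against 118, so these inhibitory receptors were shared by both groups. *Icos* was instead highest in a group led by *Ramp3* and *Tnfsf8* (636 CPM, with 350 of *Cd4*) and in a gamma-delta-like group with *Il23r* (613 CPM, with 292 of *Il2ra*). In 325 cells led by naive T cell genes such as *Ccr7*, *Pdcd1* had 1.97 CPM (1 count), *Tigit* 7.87, *Il2ra* 5.90 and *Ctla4* 53.1, each among the 3 lowest of the 12 groups.

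**Figure D2:**
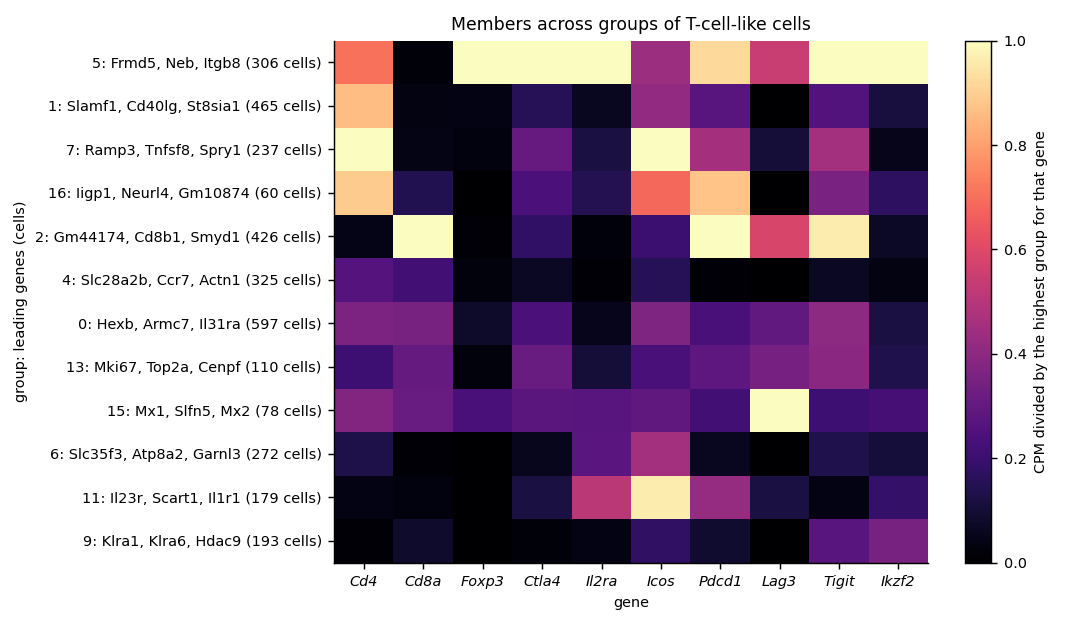
Level of each gene (columns) in 12 groups of T-cell-like cells (rows, with their leading genes), shaded as CPM over the highest group for that gene. *Foxp3*, *Ikzf2*, *Il2ra* and *Ctla4* peak in the regulatory-T-cell-like group and *Cd8a* and, within its spread only, *Pdcd1* in the group with *Cd8b1*.

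The same association was seen cell by cell. Of 146 T-cell-like cells with a *Foxp3* count, 112 (76.7%) were regulatory-T-cell-like. *Ikzf2* was detected in 93.8% of the 146 cells against 29.1% of the 3102 T-cell-like cells without a *Foxp3* count, *Ctla4* in 55.5% against 15.6% and *Il2ra* in 47.3% against 9.25%. *Cd8a* went the other way, in 1.37% (2 cells) against 13%. Cells with a *Foxp3* count were deeper, with a median of 2208.5 counts against 1696.5. After each cell was thinned to 500 counts, which left out 2 of the 146 and 52 of the others, the shares were 77.6% against 15.8% for *Ikzf2*, 27.4% against 6.54% for *Ctla4* and 21.7% against 3.39% for *Il2ra*. *Pdcd1* (4.38% against 2.55%) and *Tigit* (3.67% against 2.36%) were closer together on that scale. *Cd4* and *Cd8a* were almost never seen in the same cell, 593 cells having a count of *Cd4* alone, 400 of *Cd8a* alone and 5 of both. Most cells, 2250, had neither. Detection also differed between groups of similar depth: *Cd4* was seen in 44.3% of a group led by *Slamf1* and *Cd40lg* (median 2192 counts) but in 2.79% of the gamma-delta-like group (median 2349 counts), where *Cd8a* was seen in 2.23%. In the cells with *Cd8a* alone, *Pdcd1* had 105 CPM and *Lag3* 12.9 (12 counts), against 52.8 and 2.06 (3 counts) in those with *Cd4* alone, while *Foxp3* had 3.24 against 66.5 and *Il2ra* 10.8 against 139. These are sums over the pools, led by vehicle at day 14, and for *Pdcd1* the order was the other way in 3 pools on 1 to 4 counts each: vehicle at day 7 (34.9 against 51.6) and entospletinib at days 7 (15.8 against 66.0) and 14 (29.5 against 31.0).

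The next comparisons follow each gene over the 7 pools within T-cell-like cells. With 1 pool per condition there is no test of a single day, and the control is shared by the 3 vehicle comparisons. A gene was called past 2-fold when its ratio was at least 2-fold and all 8 sublibraries had that direction, among genes with at least 50 counts over the pair of pools. Of all genes tested, 0.817% were called higher and 0.545% lower in vehicle over control at day 1, 0.227% and 1.74% at day 7, and 1.51% and 1.06% at day 14. For entospletinib over vehicle the shares were 0.195% higher and 1.01% lower at day 1, 0.743% and 0.52% at day 7, and 0.589% and 0.546% at day 14. Against that background, vehicle over control had 0 of 8 tested members called at day 1, 1 of 8 at day 7 (*Ctla4* higher) and 3 of 9 at day 14 (*Foxp3*, *Pdcd1* and *Ikzf2* higher). Entospletinib over vehicle had 0 of 7 at day 1, 0 of 6 at day 7 and 1 of 9 at day 14 (*Pdcd1* lower). The median log2 ratio of all genes was -0.27, 0.29 and 0.06 for entospletinib over vehicle at days 1, 7 and 14 and 0.19, -0.23 and -0.05 for vehicle over control, and ratios of single genes are to be read relative to these.

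**Figure D3:**
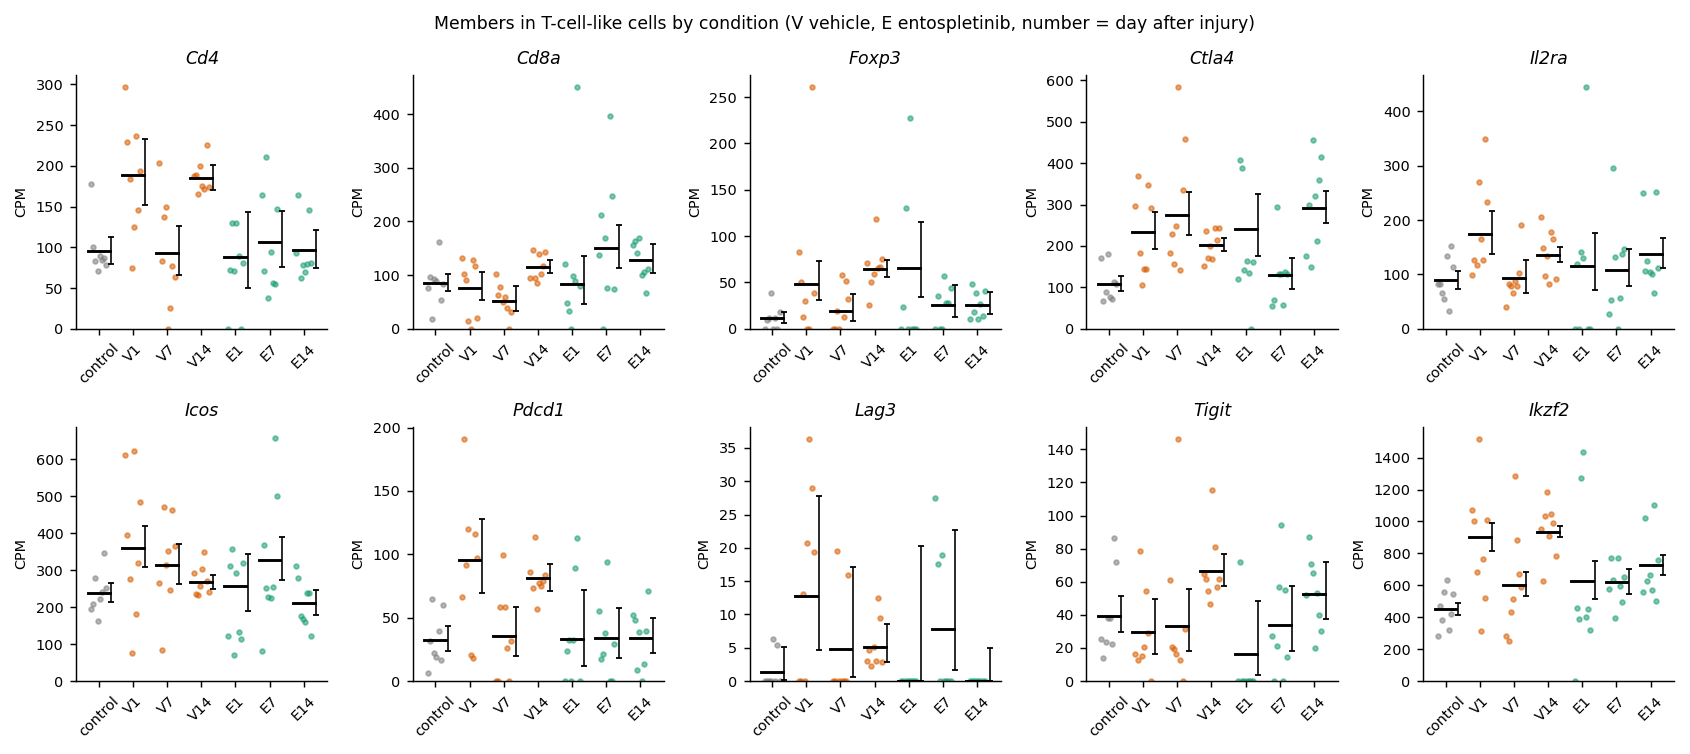
Level of each gene in T-cell-like cells of the 7 pools, in CPM: points are the 8 sublibraries, thick lines the pooled value and bars its 95% Poisson interval. *Foxp3* is lowest in the control (11.3 CPM), and *Pdcd1* is at 81.2 CPM in the vehicle pool of day 14 and 33.8 CPM in the entospletinib pool of that day.

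*Cd4*, the coreceptor of helper and regulatory T cells, had 95.2 CPM in the control (135 counts). With vehicle it had 189, 92.5 and 185 CPM at days 1, 7 and 14. Under entospletinib the values were 88.0, 106 and 96.1 CPM. The vehicle pools of days 1 and 14 were thus the high ones, and the other 5 pools lay between 88.0 and 106. Vehicle over control was 0.99 on the log2 scale at day 1 (SD 0.44) and 0.96 at day 14 (SD 0.42), in 8 of 8 sublibraries each time and just under 2-fold. Entospletinib over vehicle was -1.07 at day 1 (7 of 8 sublibraries lower), 0.20 at day 7 (4 of 8 higher) and -0.94 at day 14 (8 of 8 lower, SD 0.39). Without the ribosomal limit the control had 98.7 CPM, the vehicle pools 162, 92.2 and 180 by day and the entospletinib pools 114, 124 and 75.3. The same vehicle pools were then the high ones, but the other 5 lay further apart, between 75.3 and 124.

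*Cd8a*, the coreceptor of cytotoxic T cells, had 84.6 CPM in the control. With vehicle it had 76.4, 52.2 and 116 CPM at days 1, 7 and 14. Under entospletinib it had 82.5, 150 and 129 CPM. The largest gap was at day 7, where entospletinib over vehicle was 1.5 on the log2 scale from 58 against 22 counts, with 7 of 8 sublibraries higher and an SD of 2.20. At days 1 and 14 the ratio was 0.14 and 0.16, smaller than its spread. Because *Cd4* and *Cd8a* are counted in the same cells, their ratio does not depend on the rest of the transcriptome. It was 1.13 in the control (95% interval 0.873 to 1.45), then 2.47, 1.77 and 1.6 in the vehicle series from day 1 to day 14. Under entospletinib it was 1.07, 0.707 and 0.747. At each day the entospletinib pool had the lower *Cd4* to *Cd8a* ratio, by -1.20, -1.31 and -1.10 on the log2 scale, in 7, 5 and 7 of 8 sublibraries. At day 14 the intervals did not overlap (1.39 to 1.84 with vehicle, 0.542 to 1.03 with entospletinib), and at days 1 and 7 they did. Among deeper cells the day 14 intervals overlapped as well: in cells of at least 1000 counts the ratio was 1.58 (1.37 to 1.82) with vehicle and 1.00 (0.608 to 1.65) with entospletinib. Without the ribosomal limit the vehicle ratio of day 1 was 1.52 (1.15 to 2.03) in place of 2.47.

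*Foxp3*, which defines regulatory T cells, had 11.3 CPM in the control from 16 counts in 9 of 547 cells. With vehicle it had 48.8 CPM at day 1 (23 counts in 10 cells), 19 at day 7 (8 counts in 7 cells) and 64.7 at day 14 (188 counts in 95 cells). With entospletinib it had 66.0 CPM at day 1 (12 counts in 4 cells), 25.9 at day 7 (10 counts in 6 cells) and 25.7 at day 14 (19 counts in 15 cells). All 6 injured pools had more than the control, but the values at days 1 and 7 rest on 4 to 10 cells each. Without the ribosomal limit the control had 10.7 CPM, the vehicle pools 29.1, 15.7 and 61.1 by day and the entospletinib pools 35.5, 15 and 15.1, all above the control but by less. Vehicle over control at day 14 was 5.57-fold (2.48 on the log2 scale, SD 1.76, 8 of 8 sublibraries higher), the largest ratio of any member that could be tested. Entospletinib over vehicle at day 14 was -1.30 (SD 1.20), lower in 7 of 8 sublibraries and so not called.

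Set against *Cd4* in the same cells, *Foxp3* counts were 0.119 of *Cd4* counts in the control (95% interval 0.0659 to 0.200) and 0.349 with vehicle at day 14 (0.294 to 0.413). With entospletinib at day 14 the ratio was 0.268 (0.152 to 0.449), which overlaps vehicle. Thus *Foxp3* and *Cd4* were lower together in that pool, and their ratio differed by -0.36 on the log2 scale with 4 of 8 sublibraries in that direction.

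Regulatory-T-cell-like cells were 3.11% of T-cell-like cells in the control (17 of 547; 95% interval 1.82 to 4.93) and 13.3% with vehicle at day 14 (181 of 1366; 11.5 to 15.2). With entospletinib at day 14 they were 8.70% (67 of 770; 6.81 to 10.9). Without the limit on ribosomal protein counts the shares were 2.56%, 12.1% and 4.85%. In the entospletinib pool that alternative had 81 regulatory-T-cell-like cells of 1669, so the limit removed other T-cell-like cells more often than these. At days 1 and 7 the shares rested on 9 to 12 cells and lay between 5.84% and 11.1%. Without the limit they were 4.03% and 4.48% with vehicle and 3.65% and 3.47% with entospletinib, and the day 1 entospletinib share had been 11.1% with it. Within these cells *Foxp3* itself was 349 CPM with vehicle at day 14 (95% interval 296 to 407) and 183 with entospletinib (103 to 302), while *Ctla4* was 596 (527 to 671) and 1296 (1061 to 1567). These cells were shallower with entospletinib, at a median of 1014 against 2148 counts, so each cell was also thinned to 500 counts, which left out 2 cells with vehicle and 1 with entospletinib. A *Foxp3* count was then found in 15.9% against 7.31% and a *Ctla4* count in 23.3% against 41.2%, differences in the same directions. The higher *Ctla4* level was not particular to treatment, since the uninjured control had 1208 CPM in these cells (905 to 1580; 17 cells). Its thinned share was 36.2%. The earlier days had the opposite order, on few cells and with overlapping intervals. Vehicle had 900 CPM against 597 for entospletinib at day 1, and 1394 against 649 at day 7.

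**Figure D4:**
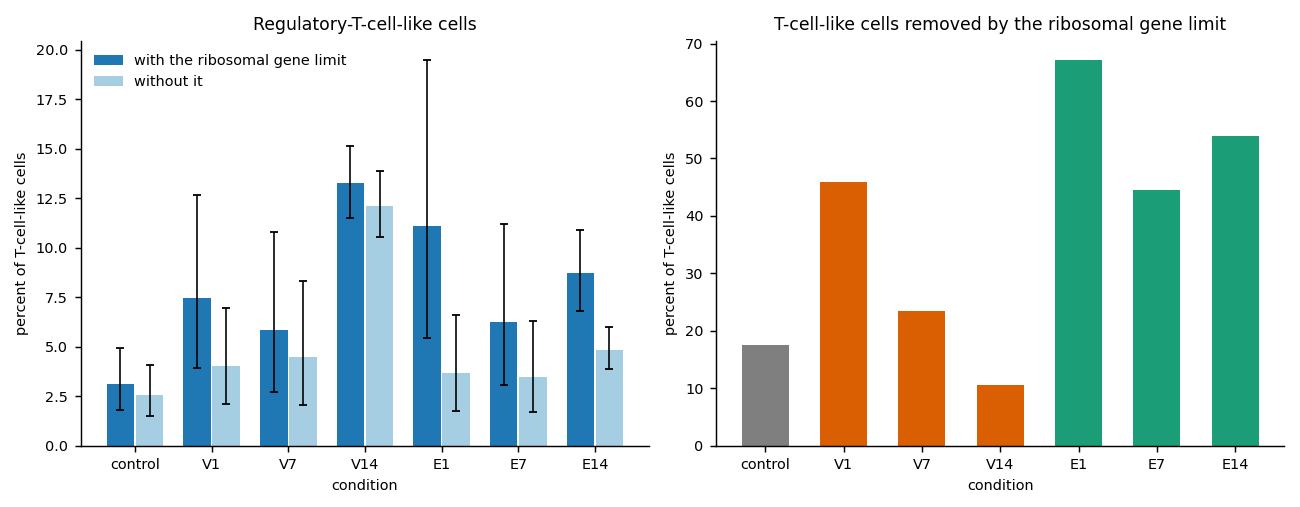
Left, regulatory-T-cell-like cells as a percent of T-cell-like cells in each pool, with and without the limit on ribosomal protein counts (bars, with exact binomial 95% intervals); right, percent of T-cell-like cells that the limit removed. The share is highest with vehicle at day 14 (13.3%), and the limit removes 53.9% of T-cell-like cells with entospletinib and 10.5% with vehicle at that day.

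*Ikzf2*, which encodes Helios, was above the control in every vehicle pool, as *Foxp3* was. The control had 451 CPM. At days 1, 7 and 14 the vehicle pools had 900, 602 and 937 CPM, and their entospletinib partners 627, 621 and 724. Vehicle over control was 1.05 at day 14 (SD 0.54, 8 of 8) and 1.00 at day 1 (7 of 8). Entospletinib over vehicle was -0.52, 0.04 and -0.37 at the 3 days, none in all 8 sublibraries. *Il2ra*, which gives the interleukin 2 receptor its high affinity, stood at 88.9 CPM without injury. Its vehicle pools had 174, 92.5 and 136 CPM by day, the entospletinib pools 115, 109 and 138. The day 1 vehicle pool was 0.97 above control on the log2 scale in 8 of 8 sublibraries, and at day 14 entospletinib over vehicle was 0.03. Without the ribosomal limit that last ratio was -0.71, and without regulatory-T-cell-like cells 0.48. The order of the pools also turned on that limit: without it *Il2ra* had 77.9 CPM in the control, 122, 80.4 and 132 by day in the vehicle pools and 65.1, 76.5 and 80.3 in their partners.

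*Icos*, the costimulatory receptor, varied least. Its control level was 238 CPM. By day the vehicle pools had 361, 313 and 269 CPM, and the entospletinib pools 258, 329 and 211. No ratio reached 2-fold: vehicle over control ran from 0.17 to 0.60 and entospletinib over vehicle from -0.47 to 0.07.

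*Ctla4*, which competes with CD28 for its ligands, had 109 CPM in the control. The vehicle pools of days 1, 7 and 14 had 233, 275 and 203 CPM, and those given entospletinib 242, 129 and 292. A *Ctla4* count was found in 10.8% of the control's T-cell-like cells. The control was the lowest pool with the ribosomal limit, but without it the entospletinib pool of day 7 was lower, at 88.5 against 98.7 CPM. Vehicle over control was 1.34 at day 7 (SD 0.90, 8 of 8 sublibraries), 1.11 at day 1 (7 of 8) and 0.90 at day 14 (7 of 8). Entospletinib over vehicle had no common direction over the days, at 0.06, -1.08 (7 of 8 lower) and 0.53 (6 of 8 higher). The reading at day 14 also depended on the cells kept: without the ribosomal limit it was -0.06.

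*Pdcd1*, which encodes PD-1, had 32.4 CPM in the control (46 counts). With vehicle it had 95.5 CPM at day 1 (45 counts), 35.6 at day 7 (15 counts) and 81.2 at day 14 (236 counts). With entospletinib it had 33.0 (6 counts), 33.6 (13 counts) and 33.8 CPM (25 counts). The 3 entospletinib pools, the control and the day 7 vehicle pool lay within 32.4 to 35.6 CPM, and the vehicle pools of days 1 and 14 were the high ones, as for *Cd4*. Without the ribosomal limit the entospletinib pools were lower, at 27.6, 19.5 and 20.7 CPM, beside 28.5 in the control and 68.4, 37.3 and 77.8 in the vehicle pools. In single sublibraries the day 14 values were 57.0 to 114 CPM with vehicle, 0 to 70.9 with entospletinib and 6.34 to 65.0 in the control. Vehicle over control at day 14 was 2.48-fold (1.31 on the log2 scale, SD 0.90, 8 of 8). Entospletinib over vehicle was -1.24 at day 14 (SD 1.42, 8 of 8 lower) and -1.43 at day 1 (6 of 8), and -0.07 at day 7. Without sublibrary s3 the day 14 comparison had no member called, its ratio being just short of 2-fold at -0.95.

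*Tigit*, a receptor that competes with CD226 for ligands, had a control level of 39.5 CPM. By day the vehicle pools had 29.7, 33.2 and 66.8 CPM, and the entospletinib pools 16.5 (3 counts), 33.6 and 52.8. Its highest value, vehicle at day 14, was 0.75 above control on the log2 scale in 6 of 8 sublibraries, and entospletinib over vehicle at that day was -0.32 (5 of 8 lower), or -0.93 without the ribosomal limit. *Lag3*, which binds MHC class II, was too low in T-cell-like cells to compare. Its counts were 2 in the control, 6, 2 and 15 in the vehicle pools by day, and 0, 3 and 0 in the entospletinib pools. By the exact Poisson interval the 0 at day 1 allows up to 20.3 CPM and that at day 14 up to 4.99 CPM, beside 12.7 and 5.16 CPM in the vehicle pools. The day 14 pool had 3 counts without the ribosomal limit.

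**Figure D5:**
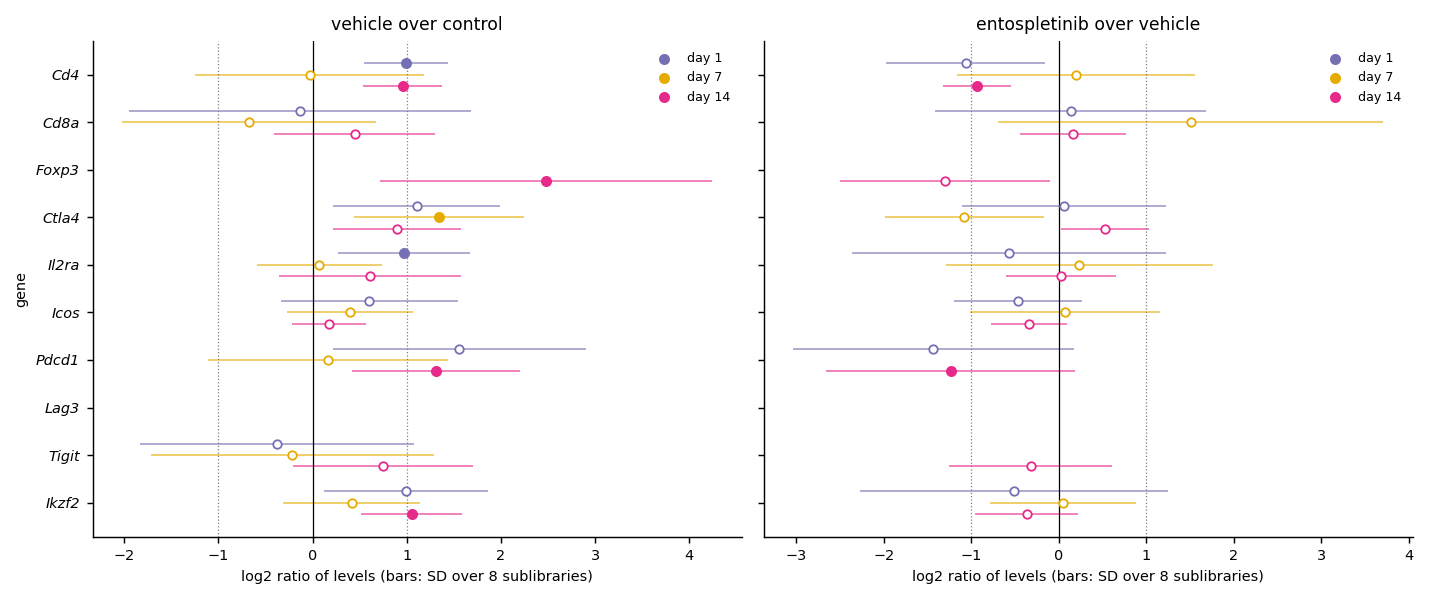
Log2 ratio of each gene in T-cell-like cells for entospletinib over vehicle and vehicle over control at each day, with bars for the SD over 8 sublibraries; filled points had the same direction in all 8, dotted lines mark 2-fold, and genes under 50 counts are not drawn. *Foxp3* (2.48), *Pdcd1* (1.31) and *Ikzf2* (1.05) are filled beyond 2-fold for vehicle over control at day 14, and *Pdcd1* (-1.24) for entospletinib over vehicle at that day.

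These calls depended on which cells were counted. With the 306 regulatory-T-cell-like cells left out, no member was called in vehicle over control at day 14: *Ikzf2* was at 0.40, *Pdcd1* at 1.00, just under 2-fold, and *Foxp3* was below the count minimum. In entospletinib over vehicle at day 14, *Pdcd1* was then at -1.52 and *Cd4* at -1.02, and both were called. Without the ribosomal limit the same comparison had 3 members called, *Pdcd1* at -1.89, *Foxp3* at -1.99 and *Cd4* at -1.25. Without that limit the entospletinib levels of *Ikzf2* were 409 CPM at day 1 and 474 at day 14, that of *Il2ra* at day 1 was 65.1, that of *Cd8a* at day 1 was 142 and that of *Ctla4* at day 14 was 191, each over 1.5 times from the value given above. Among cells of at least 1000 counts, chosen since the pools differ in depth, *Pdcd1* was at -1.58, *Cd4* at -0.97 and *Foxp3* at -0.78. A cluster of called doublets that leads with T cell genes was kept out, and with it *Pdcd1* was at -0.21 and *Cd4* at -0.06 and neither was called, while *Ctla4* (1.57) and *Cd8a* (1.14) were called higher. With T cells gated by markers, *Cd4*, *Foxp3* and *Ctla4* were the members called in vehicle over control at day 14, without *Pdcd1* and *Ikzf2*, and at day 7 *Il2ra* was called lower in place of *Ctla4* higher. The makeup of the class differed too: cells with naive genes such as *Ccr7* were 24.3% of T-cell-like cells with entospletinib and 3.07% with vehicle at day 14, and a shallow group with a median of 828 counts was 40.6% and 15.7%. Of 5 marker lists of other cells, 4 were higher with entospletinib at that day, at 260 against 128 CPM for NK cells, 89.3 against 31.7 for B cells, 110 against 38.5 for proximal tubule and 203 against 175 for macrophages, and neutrophil markers were lower, at 110 against 127. The part of these cells and markers in the lower *Pdcd1* and *Cd4* was not tested. Makeup also differed between the control and vehicle at day 14. A group led by *Slc35f3* and *Atp8a2* was 31.4% of T-cell-like cells in the control and 0.878% with vehicle. Summed over the pools it had 8.61 CPM of *Pdcd1*, 45.9 of *Cd4*, 375 of *Ikzf2*, 156 of *Il2ra* and no *Foxp3* count. Its part in the ratios of vehicle over control was not tested. In the *Cd8b1* group alone, *Pdcd1* had 163 CPM with vehicle at day 14 (95% interval 130 to 202; 82 counts in 234 cells) and 94.0 with entospletinib (19.4 to 275; 3 counts in 28 cells), a difference not detectable at this depth.

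The 3 same-day pairs of pools allowed a single test of treatment, with edgeR's quasi-likelihood test on counts summed per pool and day as a block. It leaves 2 residual degrees of freedom, and the pools are the replicates. Of 6235 genes tested, 12 (0.192%) passed an adjusted p of 0.05, 4 higher and 8 lower with entospletinib. None of the 9 members tested was among them, and DESeq2 also called none, while 3 of the 9 had an unadjusted p under 0.05 by edgeR, as had 507 of all 6235 genes (8.13%). *Lag3* was too low to test. *Pdcd1* was at -1.09 on the log2 scale (SE 0.29, edgeR adjusted p = 0.133), *Cd4* at -0.72 (SE 0.21, edgeR adjusted p = 0.208) and *Ikzf2* at -0.34 (SE 0.16, edgeR adjusted p = 0.586). *Foxp3* was at -0.51 (edgeR adjusted p = 0.788) and *Cd8a*, the only member above 0, at 0.45 (edgeR adjusted p = 0.619). The median of the 9 members was -0.34 against -0.0029 for all genes tested. Without the day 7 pair, *Pdcd1* was at -1.33 (edgeR adjusted p = 0.0117) and *Cd4* at -0.98 (edgeR adjusted p = 0.0159), both past the threshold. *Foxp3* turned from -0.51 to 0.44 when the day 14 pair was left out, so its direction in the full fit came from that day. Without the ribosomal limit *Pdcd1* alone passed, at -1.55 (edgeR adjusted p = 0.0287). Over all settings run the adjusted p of *Pdcd1* ranged from 0.0117 to 1.00 and that of *Cd4* from 0.0159 to 1.00, the highest being DESeq2's.

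Outside T cells, several members differed between pools. *Il2ra* in macrophage-like cells was 7.30 CPM in the control (95% interval 5.91 to 8.92) and reached 52.7 CPM with vehicle (433 counts in 148 of 1977 cells) and 41.2 with entospletinib (225 counts in 104 of 2269 cells) at day 1. In the other injured pools it was 2.77 to 9.29 CPM, so the 2 pools of day 1 stood clear of the other 5. Migratory-dendritic-cell-like cells, which carry antigen out of tissue, had 185 CPM of *Il2ra* without injury. Their vehicle pools had 799, 297 and 265 CPM by day, the entospletinib pools 482, 418 and 450. In ILC2-like cells *Icos* was 974 CPM in the control (198 counts in 58 cells) and 239 with vehicle at day 14 (16 counts in 25 cells), and 239 to 765 in all injured pools. *Il2ra* there ranged from 382 CPM (27 cells, entospletinib at day 14) to 3466 (17 cells, entospletinib at day 1), which are few cells.

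*Cd4* in macrophage-like cells was highest in the control, 33.7 CPM (95% interval 30.6 to 37.0), and 14.0 to 29.4 in the injured pools. With vehicle at day 14 it was 20.4 (18.5 to 22.5) and with entospletinib 29.4 (24.4 to 35.2), the opposite order to T-cell-like cells. *Lag3* in pDC-like cells was 41.5 CPM without injury, 76.0, 19.6 (4 counts) and 78.3 by day in the vehicle pools, and 102, 82.7 and 88.7 in their partners, with overlapping intervals between treatments at days 1 and 14. *Ctla4* in B-cell-like cells was 8.02 CPM without injury (7 counts). By day it was 47.4, 35.3 and 53.0 in the vehicle pools and 0, 7.61 and 35.1 in the entospletinib pools. The 0 came from 160 cells and its interval reaches 13.9 CPM, below the 32.4 to 66.9 of vehicle at day 1. *Tigit* in NK-cell-like cells, 11.1 CPM in the control from 3 counts, was highest with vehicle at day 7 (87.6 CPM, 15 counts) and lowest with entospletinib at that day (6.34 CPM, 1 count).

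Other genes of T cell state were counted in T-cell-like cells from 6 lists, chosen like the members with earlier results known. Single genes named here for vehicle over control, and *Lef1*, were picked after their values were seen. In vehicle over control at day 14, 4 of 10 tested regulatory T cell genes were called higher and 1 lower: *Itgae* (3.23), *Ikzf4* (2.47), *Il1rl1* (2.31) and *Klrg1* (1.90) against *Socs2* (-1.58). The median of that list was 1.09 against -0.05 for all genes. Of 14 other inhibitory receptors and their factors, 3 were called higher, *Havcr2* (2.07, TIM-3), *Nr4a3* (1.62) and *Nr4a1* (1.17), the last pair being induced by T cell receptor signals. Of 18 costimulation and receptor signalling genes, *Tnfrsf9* (3.63) was called higher and *Cd226* (-1.28), the activating counterpart of TIGIT, lower. None of the 7 helper and 7 cytotoxic genes tested was called, and of 10 naive and memory genes *Satb1* (-1.67) was lower. At day 7 the lists had 3 calls, all lower in vehicle (*Cd226*, *Ifng* and *Tbx21*), and at day 1 none.

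In entospletinib over vehicle at day 14, the naive and memory genes *Ccr7* (2.12; 56.9 against 13.1 CPM), *Klf2* (1.55) and *Lef1* (1.15) were called higher. *Ccr7* guides naive and central memory cells to lymph nodes, and *Klf2* keeps them quiescent. Of 13 tested inhibitory receptors and their factors, *Nr4a3* (-1.35; 206 against 527 CPM) and *Nr4a2* (-1.08) were called lower. None of the 10 regulatory, 18 costimulation, 7 helper and 5 cytotoxic genes tested was called. At day 1 *Nr4a3* was called lower (-1.41; 15 against 106 counts) and at day 7 *Cd226* higher (1.16), with no other call in the lists. In the 3-day fit *Nr4a3* was the only listed gene called, lower with entospletinib at -1.22 (SE 0.17, edgeR adjusted p = 0.00117). That call depended on the setting: no gene at all was called without the day term or with T cells gated by markers.

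Genes with the profile most like each member were sought over the 17 classes, among 8660 genes of at least 50 counts in T-cell-like cells, by Pearson's r of log2(CPM + 1). These are descriptions, since the classes share libraries and differ in depth. The 17 classes include the basophil-or-mast-cell-like one, 49.7% called doublets, which was left out of the orders given earlier. Its part in these correlations was not tested. *Cd4* and *Cd8a* were most like *Cd8b1* (r of 0.897 and 0.903), *Cd5* and each other or *Gm44174*. *Foxp3* was most like *Izumo1r* (0.954), *Cd40lg* and *Trac*, and *Ctla4* most like *Cd3d* (0.909), *Cd28* and *Gm44174*. *Il2ra* was nearest to *Tnfrsf18* (0.906), *Ncoa2* and *Gtpbp1*, and *Icos* to *Tnfsf11* (0.964), *Pglyrp2* and *Camk4*. *Pdcd1* came closest to *Themis* (0.966), *Ccr4* and *Art2b*, *Tigit* to *Gm2682* (0.977), *Ifngas1* and *Fasl*, *Ikzf2* to *Sh2b1* (0.906), *Skap1* and *Gprin3*, and *Lag3* to *Smyd1* (0.831), *Edem2* and *Dhx37*.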

How the data were processed

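Single cells from 7 pooled suspensions were barcoded by combinatorial indexing (Parse Evercode) and split into 8 sublibraries. Per the study's methods the authors ran the Parse Biosciences pipeline with alignment to mm10 and deposited raw transcript counts per cell and gene, with a cell table that names each cell's condition. The annotation release was not given in the sources used here. The labels of the deposited samples name sublibraries, so conditions were taken from the cell table, and its injury pools without entospletinib were taken as vehicle from the study's methods. All 7 pools were used, and 0 columns of per-sample values were left aside.

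Cells with more than 300 genes, under 20000 counts, under 25% mitochondrial and under 1.5% ribosomal protein counts were kept. Counts were scaled to 100000 per cell, and 4000 features without the members gave 40 principal components, 15 neighbours and 31 Leiden clusters (leidenalg 0.10.2, igraph 0.11.9, Python 3.11.15, numpy 2.4.6, scipy 1.17.1, pandas 2.3.3, matplotlib 3.10.9). A cluster was named from at least 3 markers among its 100 leading genes. Doublets were simulated and called at a score of 0.5, and clusters with over 50% called doublets stayed unnamed; other called doublets stayed in, and their removal is an alternative. T-cell-like cells were clustered again with 2000 features.

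Counts were summed per pool and class. Log2 ratios added 0.5 counts, and a gene needed 50 counts over both pools. Pools of the 3 days were compared with edgeR 4.0.16 (quasi-likelihood test, TMM, day as block, Benjamini-Hochberg adjusted p under 0.05) in R 4.3.3 with limma 3.58.1, and with DESeq2 1.42.0 as an alternative. Each day holds 1 pool of each treatment, which is where the block comes from; pools are not animals, and p-values measure only the spread between these pools. Other alternatives were DESeq2 size factors, filters on counts and genes, thinning to 1000 counts, TMM or median scaling, no ribosomal limit, T cells gated by markers, leaving out each day or sublibrary and, chosen after seeing the data, adding a doublet cluster, leaving out regulatory-T-cell-like cells and keeping cells of at least 1000 counts. Scripts were tested on simulated data. The members and lists were chosen with earlier results of these data known. Named were all 10 members, the 3 genes most like each over the classes, up to 3 called genes per list in each comparison of entospletinib with vehicle, and neighbours on the chromosome. A result for 1 listed gene is not reported here.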

Additional observations from a re-analysis of the deposited data

Results flagged for a closer look

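The level of *Tigit* in T-cell-like cells, summed over all pools, was 76.3 CPM in sublibrary s5. The other 7 sublibraries lay between 41.6 and 57.7 CPM, so s5 stood apart by 0.538 of the whole range, beyond Dixon's limit of 0.526. With 10 such sets examined, 1 per gene, chance flags about 1 in 20. All sublibraries hold the same pools.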

How the results depend on the processing

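The edgeR test over the 3 days called 12 genes, against 2 with DESeq2, 38 without a count filter, 0 without the day term (the replicate block of the main fit), 42 without the ribosomal limit, 0 with T cells gated by markers, 2 with the cluster of called doublets and 6 without regulatory-T-cell-like cells. Leaving out a day gave 5 (without day 14) to 61 (without day 7). It called 0 members, but 1 without the ribosomal limit, and 0 to 2 when a day was left out (2 without day 7). Members past 2-fold for entospletinib over vehicle at day 14 numbered 1, *Pdcd1* lower, against 3 without the ribosomal limit and 2 (*Pdcd1* and *Cd4*, lower) without regulatory-T-cell-like cells, with TMM library sizes or relative to the median of all genes. With the doublet cluster *Pdcd1* was not called, and the 2 members called, *Cd8a* and *Ctla4*, were higher. Leaving out a sublibrary gave 0 (s3) to 3 (s2). At day 7 the count was 0, against 1 without the ribosomal limit or with the doublet cluster and 0 to 2 without a sublibrary (2 without s3), and at day 1 it was 0, with 0 to 2 (2 without s5). For vehicle over control the count at day 1 was 0 and 0 to 3 without a sublibrary (3 without s5). At day 7 it was 1, against 4 with the doublet cluster and 0 without regulatory-T-cell-like cells, and at day 14 it was 3, against 1 and 0 in these, 4 without the ribosomal limit, with TMM library sizes or relative to the median of all genes, and 2 to 4 without a sublibrary (4 without s1). The 4 calls at day 7 were all lower, and *Ikzf2* at day 14 was not called without s1, s3 or s6. *Ctla4* in vehicle over control at day 7 reversed to -0.21 with the doublet cluster. The log2 change of the *Foxp3* to *Cd4* ratio for entospletinib at day 1, 1.53, was -1.09 with gated T cells and 4.00 without regulatory-T-cell-like cells. The cause of these shifts was not tested. Of 817 values of the members' single-day ratios under alternatives, 782 moved by less than the spread between sublibraries. The sign changed in 80, 18 of them with the doublet cluster, and the other 62 had main ratios of at most 0.67 in size. Depth limits *Foxp3*, *Pdcd1*, *Tigit* and *Lag3* at days 1 and 7, where most had under 25 counts per pool.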
